A study of Mus musculus with 6 samples.

Results

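Hprt and 9 other genes of purine metabolism were followed in RNA from CD11B+ kidney cells: Hprt, Aprt and Adk of purine salvage, Pnp, Ada, Gda and Xdh of nucleoside and base breakdown, Ampd3 of nucleotide interconversion, and Ppat and Gart of de novo synthesis. These 10 genes were taken by symbol from the 46603 genes of the count table, and 10 of 10 were among the 15440 genes with enough counts to test. Hprt was chosen by its fall in these same libraries, so its values are given as a description without a test. The other 9 genes were added to ask whether the pathway compensated, and were chosen with earlier results of these data known.

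The libraries came from 3 PTEC DN RAR mice, in which PEPCK-Cre switches on a truncated, dominant negative RARa from the Rosa26-LSL-RARaT403X (R26R-DN RAR) allele in proximal tubular epithelial cells (PTECs), and from 3 Cre- controls, which carry that allele without PEPCK-Cre. All 6 were males aged 10 to 12 weeks whose renal pedicles were both clamped for 28 minutes (bilateral IRI-AKI), and kidneys were taken on day 3. PEPCK-Cre mice were on a mixed 129svJ; C57BL/6 background and R26R-DN RAR mice on C57BL/6, and PTEC DN RAR mice were bred to carry the latter allele on both chromosomes. Cells were captured with anti-CD11B beads, which retain monocytes, macrophages, granulocytes and NK cells, and 1 polyA-selected library was counted per mouse. The authors also list B cells among CD11B+ cells. The Cre transgene, the expression of DN RAR in PTECs and any genome linked to the transgene separate the same mice, so their parts in a difference cannot be told apart here.

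Purine nucleotides are made from simple precursors by the de novo route or recovered from free bases and nucleosides by salvage. HPRT, encoded on the X chromosome, joins hypoxanthine and guanine to PRPP to form IMP and GMP, and APRT forms AMP from adenine in the same way. Bases that are not salvaged are oxidised by xanthine dehydrogenase to uric acid, and in humans inherited loss of HPRT is known for raised uric acid and increased de novo synthesis.

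Hprt was far lower in CD11B+ cells of PTEC DN RAR mice than in those of Cre- controls. The gene (ENSMUSG00000025630, plus strand of the X chromosome, 52988137 to 53021659 in GRCm38) gave 7806, 6411 and 6568 reads in Cre- controls and 313, 272 and 308 reads in PTEC DN RAR mice. Scaled to a common library size with TMM factors (CPM), the level was 200, 215 and 208 CPM in the controls against 7.48, 6.41 and 6.53 CPM with DN RAR. Every PTEC DN RAR library was far below every Cre- control, and no library of either group lay between them.

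The individual PTEC DN RAR libraries kept 3.60%, 3.09% and 3.14% of the mean of the Cre- controls. The ratio of the group means was 30.5, and it ran from 26.7 for the lowest control over the highest PTEC DN RAR library to 33.6 for the opposite pair. The log2 fold change was -4.93 (SE 0.10), the lowest of all 15440 genes tested. Spread between mice was small, with an SD of 3.64% of the mean in Cre- controls and 8.61% in PTEC DN RAR mice. In bulk RNA, fewer cells of a type and less RNA per cell cannot be told apart. Where in the genome the PEPCK-Cre transgene lies is not given in the sources used here, so an insertion at or near Hprt itself, with which the fall could belong to the Cre allele, and an effect of DN RAR cannot be told apart either. The remaining reads were not at the limit of detection, since 3 reads correspond to between 0.0645 and 0.102 CPM in these libraries.

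**Figure D1:**
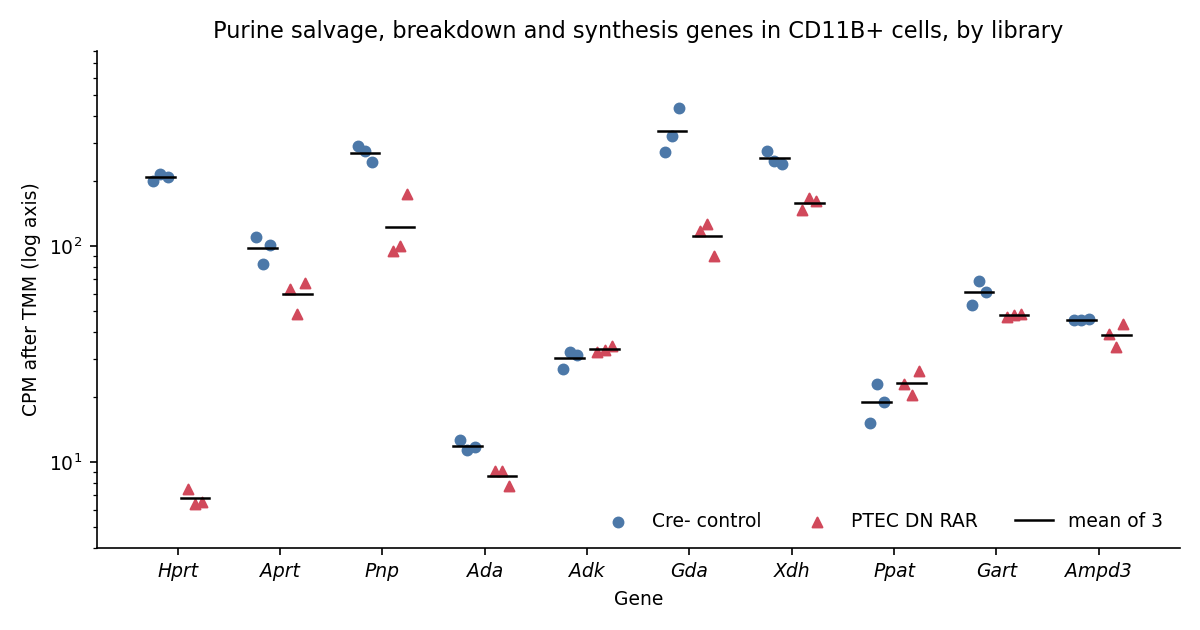
CPM after TMM scaling (log axis) of the 10 genes in each of the 3 Cre- control (circles) and 3 PTEC DN RAR (triangles) libraries, with the mean of each group as a bar. Hprt separates the groups by far more than any of the other genes, Gda and Pnp follow, and Adk and Ppat overlap between groups.

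Other genes with low log2 fold changes and a mean of at least 1 CPM were less uniform between mice. Ppbp, a chemokine of platelets, fell from 25.6, 19.0 and 36.4 CPM in Cre- controls to 1.77, 0.778 and 1.42 CPM in PTEC DN RAR mice, a log2 fold change of -4.35 (SE 0.33, adjusted p = 0.000181). Its control values spread widely, whereas those of Hprt stayed within 200 to 215 CPM. Pf4, also a platelet chemokine, was at -3.10 (adjusted p = 0.000115), and the lubricant glycoprotein gene Prg4 and the acute phase gene Saa3 were at -3.69 (adjusted p = 0.00742) and -3.53 (adjusted p = 0.00765). An adjusted p comes from the quasi-likelihood test of edgeR and was adjusted over all genes tested after Benjamini and Hochberg, and a gene is called, or said to have risen or fallen, when it is under 0.05.

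The 5 genes whose pattern was most like that of Hprt, by Pearson correlation of log2 CPM over the 6 libraries among 13021 genes with a mean of at least 1 CPM, were Fbxo42 (r = 0.999), 4833420G17Rik (r = 0.999), Dip2b (r = 0.999), Ufsp2 (r = 0.998) and Sec23a (r = 0.997). The 6 points form a cluster per genotype and share their library scaling, so r here describes how tightly each genotype held together. The size of the change was not alike, for Ufsp2 had the largest log2 fold change of the 5, -0.64 (SE 0.08), and 4833420G17Rik the smallest, -0.36 (SE 0.09).

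The letters upstream of the start site are shown for Hprt and Aprt, the purine phosphoribosyltransferases, and for Gda, which had the largest fall among the other genes. They are the 250 bases before the RefSeq start on GRCm38.p6, 5′ to 3′ on the gene's strand, and capitals mark GC boxes (GGGCGG or its reverse complement CCGCCC).
Hprt (chrX:52987828-52988077, plus strand): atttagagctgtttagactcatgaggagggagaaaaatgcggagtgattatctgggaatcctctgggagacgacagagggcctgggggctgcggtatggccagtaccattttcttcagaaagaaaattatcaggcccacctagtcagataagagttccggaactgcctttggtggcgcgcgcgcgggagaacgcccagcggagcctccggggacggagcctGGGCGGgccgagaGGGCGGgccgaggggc
Aprt (chr8:122576908-122577157, minus strand): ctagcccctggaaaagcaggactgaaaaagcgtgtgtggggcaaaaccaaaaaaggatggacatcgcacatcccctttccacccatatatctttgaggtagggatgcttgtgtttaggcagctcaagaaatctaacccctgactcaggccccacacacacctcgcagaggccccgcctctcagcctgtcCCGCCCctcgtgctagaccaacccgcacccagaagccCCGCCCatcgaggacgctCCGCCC
Gda (chr19:21472662-21472911, minus strand): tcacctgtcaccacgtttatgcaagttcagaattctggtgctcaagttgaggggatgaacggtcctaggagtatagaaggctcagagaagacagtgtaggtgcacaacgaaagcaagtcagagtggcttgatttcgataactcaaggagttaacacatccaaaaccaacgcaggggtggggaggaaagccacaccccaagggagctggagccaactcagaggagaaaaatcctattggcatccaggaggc
Hprt held 2 GC boxes, Aprt 3 and Gda 0. GC made up 59.6% of these bases for Hprt, 58.4% for Aprt and 50.0% for Gda, against a median of 52.4% over 32851 RefSeq promoters, of which 32.7% held a GC box in the same window. RefSeq entries were found for 9 of the 10 genes. No window of those 9 held TATAAA (in 12.4% of all promoters) on either strand. None held AGGTCA, a half-site bound by retinoic acid receptors (in 14.0%), on either strand. Only the exact letters AGGTCA and their reverse complement were sought, so the windows were not tested for other forms of that half-site. Such matches describe letters only, and no binding or methylation was measured in these samples.

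Markers of cell types also differed between the groups. Over all genes tested, 17.1% were lower and 23.6% were higher. The summed level of 9 CD11B cell and macrophage markers was 26950 to 29390 CPM among Cre- controls against 22150 to 24820 CPM among PTEC DN RAR mice. Of these 9 markers, 4 were lower and 5 were not called, with a median log2 fold change of -0.02. For infiltrating monocyte markers 5 of 6 were lower (sums of 2328 to 2551 against 1130 to 1302 CPM). For neutrophil markers 5 of 7 were lower (sums of 461.5 to 834.1 against 291.6 to 412.4 CPM). All 12 proximal tubule markers were higher, with sums of 901.4 to 1085 CPM against 2268 to 3421 CPM, and so were all 5 thick ascending limb, 4 of 4 distal convoluted tubule, all 5 endothelium, 3 of 4 podocyte and 1 of 4 collecting duct markers. None of 7 tested markers of NK, T and B cells and none of 4 tested erythroid markers was called. No marker of these lists was at 0 in all libraries, and mitochondrial transcripts took 5.03% to 8.77% of gene counts in Cre- controls and 10.4% to 12.1% in PTEC DN RAR mice.

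Among the other 9 genes, 6 were lower in PTEC DN RAR mice, 0 were higher and 3 were not called. Of all genes tested, 17.1% were lower and 23.6% were higher at the same threshold. The median log2 fold change of the 9 was -0.46, against 0.04 over all genes. No gene of the 9 was higher at an unadjusted p under 0.05 either, by edgeR, DESeq2 or limma-voom with their own scaling. Under pan-leukocyte scaling 2 were, Adk and Ppat, and without Cre- control 2 it was 1, Ppat. For 7 of the 9, the highest PTEC DN RAR library lay under the lowest Cre- control, an arrangement found for 24.2% of all genes tested, and for 0 of the 9 it was the reverse, which held for 29.2% of all genes.

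Of the salvage enzymes beside Hprt, Aprt fell and Adk did not pass the test. Aprt (chr8:122574635-122576909) was at 109.6, 82.2 and 100.5 CPM in Cre- controls and at 63.4, 48.4 and 66.9 CPM in PTEC DN RAR mice. The groups did not overlap, and the log2 fold change was -0.71 (SE 0.15, 95% interval -1.04 to -0.38, adjusted p = 0.00599). Adk, which phosphorylates adenosine to AMP, was at 27.0, 32.3 and 31.3 CPM in Cre- controls and at 32.1, 33.0 and 34.3 CPM in PTEC DN RAR mice. Its groups overlapped, and the interval of its log2 fold change of 0.13 ran from -0.09 to 0.36 (adjusted p = 0.305).

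Of the 10 genes, the breakdown genes Gda and Pnp had the largest falls after Hprt. Gda (chr19:21391307-21473445), the guanine deaminase that turns guanine, a substrate of HPRT, into xanthine, was at 271, 321 and 434 CPM in Cre- controls and at 118, 126 and 89.3 CPM in PTEC DN RAR mice. This was a log2 fold change of -1.62 (SE 0.19, 95% interval -2.06 to -1.19, adjusted p = 0.000551), and the PTEC DN RAR mean was 32.4% of the control mean. The controls spread widely for Gda, yet the lowest of them was above the highest PTEC DN RAR library.

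Pnp, the phosphorylase that releases hypoxanthine and guanine from inosine and guanosine, was at 289, 274 and 245 CPM in Cre- controls and at 94.8, 99.7 and 173 CPM in PTEC DN RAR mice. The third PTEC DN RAR library stood above the other two but below all controls, and the log2 fold change was -1.14 (SE 0.21, 95% interval -1.63 to -0.65, adjusted p = 0.0041). Pnp lies on chromosome 14 beside the similar gene Pnp2, and its identifier carries another name in the annotation used here, so reads may have been split between copies. Pnp2 itself was at 2.61, 2.45 and 1.55 CPM in Cre- controls and at 4.06, 3.54 and 1.10 CPM in PTEC DN RAR mice, with overlap and no call (log2 fold change 0.39, SE 0.44, adjusted p = 0.513).

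Xdh (chr17:73883895-73950196), whose product oxidises hypoxanthine and xanthine, was at 276, 246 and 239.9 CPM in Cre- controls and at 146, 166 and 161 CPM in PTEC DN RAR mice. All PTEC DN RAR libraries were lower, with a log2 fold change of -0.69 (SE 0.09, 95% interval -0.90 to -0.47, adjusted p = 0.001). Ada, the adenosine deaminase that forms inosine, was at 12.6, 11.3 and 11.8 CPM in Cre- controls and 9.10, 9.10 and 7.69 CPM in PTEC DN RAR mice. This was a log2 fold change of -0.46 (SE 0.13, 95% interval -0.76 to -0.17, adjusted p = 0.0205). When libraries were scaled on 21 pan-leukocyte genes in place of TMM, Ada was no longer called (-0.27, adjusted p = 0.168).

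Neither gene of de novo synthesis among the 10 was called higher. Ppat, the amidophosphoribosyltransferase of the first committed step, was at 15.1, 22.9 and 18.85 CPM in Cre- controls and at 23.0, 20.3 and 26.3 CPM in PTEC DN RAR mice. The ranges overlapped, and the log2 fold change of 0.29 had an interval from -0.08 to 0.67 (adjusted p = 0.186), which spans no change and a rise of up to 0.67. Gart, a trifunctional enzyme of the same route, was at 53.1, 69.0 and 61.3 CPM in Cre- controls and at 46.7, 47.9 and 48.6 CPM in PTEC DN RAR mice.

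The 3 PTEC DN RAR values of Gart were close together and below all controls, with a log2 fold change of -0.36 (SE 0.10, adjusted p = 0.0252). That call was lost under pan-leukocyte scaling (-0.16, adjusted p = 0.36) and without Cre- control 2 (-0.30, adjusted p = 0.0529), Cre- control 3 (-0.40, adjusted p = 0.0561), PTEC DN RAR 1 (-0.34, adjusted p = 0.0732) or PTEC DN RAR 2 (-0.36, adjusted p = 0.0605). An antisense gene lies within Gart, and Ppat shares its start region with Paics, and the strand setting of the counting is not given in the sources used here.

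Ampd3, an AMP deaminase that returns AMP to IMP, was at 45.2, 45.2 and 46.1 CPM in Cre- controls and at 39.3, 33.9 and 43.3 CPM in PTEC DN RAR mice. All PTEC DN RAR libraries were lower, but the gene was not called (log2 fold change -0.23, SE 0.10, adjusted p = 0.105). Without PTEC DN RAR 3, the highest of its group, it was called (-0.36, adjusted p = 0.0311).

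**Figure D2:**
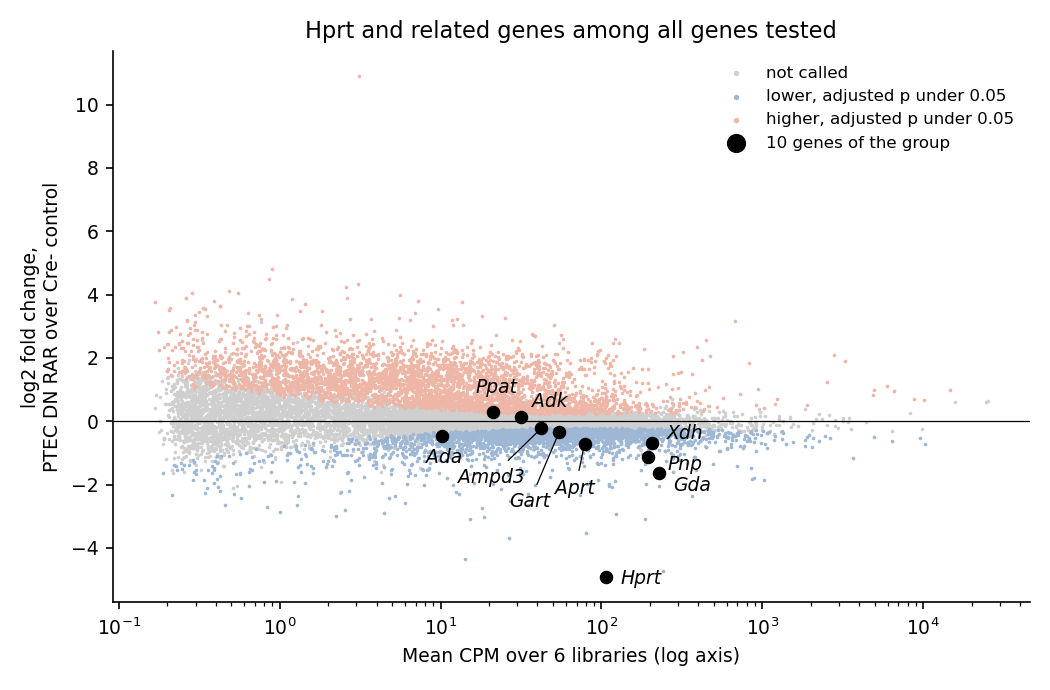
Log2 fold change (PTEC DN RAR over Cre- control) against mean CPM over the 6 libraries (log axis) for 15440 genes, with the 10 genes in black and calls at an adjusted p under 0.05 in colour. Hprt is the lowest point of the plot at -4.93, and Gda, Pnp, Xdh and Aprt lie on the lower side.

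Levels were compared between genes as CPM per kb of exon, with Pnp left out because its gene model is uncertain. In Cre- controls Hprt was the highest of 9 genes at 161 ± 5.86 CPM per kb (SD, n = 3), followed by Aprt at 60.3 ± 8.66 and Gda at 54.8 ± 13.4, whose ranges overlapped. Xdh came next at 27.7 ± 2.09 CPM per kb, then Gart at 11.9 ± 1.55, Ampd3 at 8.08 ± 0.0892 and Ada at 5.94 ± 0.330, none of which overlapped its neighbour in this order. Ppat at 4.28 ± 0.881 and Adk at 3.54 ± 0.333 CPM per kb were lowest and overlapped.

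In PTEC DN RAR mice Hprt stood at rank 6 of the same 9 genes, at 5.28 ± 0.455 CPM per kb, and overlapped Ppat at 5.25 ± 0.678. Aprt was then the highest at 36.9 ± 6.11 CPM per kb, followed by Gda at 17.8 ± 3.07 and Xdh at 17.2 ± 1.12, which overlapped. Gart at 9.28 ± 0.188 and Ampd3 at 6.90 ± 0.835 CPM per kb were above Hprt in every library, and Ada at 4.31 ± 0.406 and Adk at 3.89 ± 0.127 were lowest and overlapped.

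Across a wider list of 54 genes of purine metabolism without Hprt, 49 were tested, of which 15 were lower, 6 were higher and 28 were not called (against 17.1% lower and 23.6% higher among all genes tested). On the log2 scale the median difference was -0.10. With pan-leukocyte scaling 8 were lower, among them Aprt, Pnp, Gda and Xdh, and 9 were higher (16.3% and 18.4% of the 49), where 5.08% and 30.5% of all genes tested were lower and higher. With TMM, the count of higher genes was 3 without Cre- control 3 and 3 without PTEC DN RAR 3, which in both cases were Ak1, Ak3 and Slc28a1. Outside the 10 genes, 9 of 40 tested were lower and 6 were higher. Ampd1, Slc28a3, Slc29a4, Nt5c1b and the urate oxidase gene Uox had too few reads to test, and Nt5c1b had 0 in all libraries.

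The step from IMP to AMP and GMP, for which HPRT and the de novo route supply IMP, had 4 of 5 genes lower and 0 higher, and summed levels of 223 to 239 CPM in Cre- controls against 151 to 170.5 CPM under DN RAR, where 17.1% of all genes tested were lower. Of these 4 calls, pan-leukocyte scaling kept 1, that of Adssl1. Adssl1, an adenylosuccinate synthase, had the largest fall of this class, from 68.1 ± 7.40 to 42.4 ± 5.99 CPM (SD, n = 3 per group), a log2 fold change of -0.68 (SE 0.13, adjusted p = 0.00365). Impdh1, an IMP dehydrogenase of the guanine branch, had the smallest of the 4 falls, -0.42 (SE 0.11, adjusted p = 0.0148), and was among the 3 no longer called under that scaling.

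Upstream of these steps, 0 of 5 genes for PRPP synthesis and, of the 6 de novo genes, only Gart was called, as lower. Of all genes tested, 17.1% were lower and 23.6% were higher. Other settings called 1 gene of each class as higher: Prps2, a PRPP synthetase (0.24, adjusted p = 0.0587 with TMM), under pan-leukocyte scaling and with at least 10 counts in every library, and Pfas, of the de novo route (0.36, adjusted p = 0.0696 with TMM), under pan-leukocyte scaling, with the replicate block and without Cre- control 2. They also called 1 more of each as lower: Prps1l3, of PRPP synthesis, without Cre- control 1, and Atic, of the de novo route (-0.33, adjusted p = 0.0585 in the main test), with DESeq2, without a filter and without Cre- control 1. The medians of the PRPP and de novo classes were -0.07 and -0.07, and the summed levels were 224 to 246 CPM against 253 to 269 CPM for PRPP synthesis and 345 to 410.0 CPM against 315 to 352 CPM for de novo synthesis, controls first. In the salvage class without Hprt, 2 of 4 genes were lower: Aprt and Dck, the deoxycytidine kinase that also phosphorylates purine deoxynucleosides, with 223 ± 11.1 CPM in Cre- controls and 137 ± 20.2 CPM in PTEC DN RAR mice (log2 fold change -0.71, SE 0.12, adjusted p = 0.00237). Of 7 breakdown genes tested, 4 were lower, and these were Pnp, Ada, Gda and Xdh. Both counts stand against 17.1% of all genes tested that were lower. The breakdown class took 859 to 942 CPM in Cre- controls but 379.7 to 441 CPM under DN RAR, the widest gap of the 8 classes without Hprt.

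In nucleotide interconversion 4 of 9 tested genes were higher and 0 were lower (23.6% and 17.1% of all genes tested), with summed levels of 289 to 302 CPM in Cre- controls against 323 to 368 CPM under DN RAR. Ak1, a cytosolic adenylate kinase, rose the most, from 4.26 ± 0.575 to 14.7 ± 3.95 CPM (log2 fold change 1.79, SE 0.22, adjusted p = 0.000716), and Guk1, the guanylate kinase that makes GDP from GMP, the least, at 0.51 (SE 0.16, adjusted p = 0.0304). Guk1 was not called without Cre- control 2, Cre- control 3, PTEC DN RAR 1 or PTEC DN RAR 3, and the class count of 4 was 3 without PTEC DN RAR 1 and 2 without each of the other 3. The 5'-nucleotidases had 3 of 7 tested genes lower and 0 higher. Nt5e, the cell surface enzyme CD73 that forms adenosine from AMP, fell from 11.4 ± 2.49 to 5.36 ± 0.825 CPM (-1.08, SE 0.19, adjusted p = 0.00329), and Nt5c2, a cytosolic IMP and GMP phosphatase, fell by 0.31 on the log2 scale (SE 0.08, adjusted p = 0.0164). Under pan-leukocyte scaling 1 of these 3 calls, that of Nt5e, was kept.

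Of 6 tested transporters of nucleosides and bases, 1 was lower and 2 were higher, near the shares of all genes tested (17.1% and 23.6%). The 2 became 1 without Cre- control 2, Cre- control 3, PTEC DN RAR 2 or PTEC DN RAR 3 and with at least 10 counts required in every library, and 3 under pan-leukocyte scaling. Slc28a1, a concentrative nucleoside transporter, rose from 0.374 ± 0.144 to 1.93 ± 0.746 CPM (log2 fold change 2.33, SE 0.42, adjusted p = 0.00346), and Slc28a2, a purine-selective relative, fell from 24.4 ± 3.36 to 15.1 ± 1.95 CPM (-0.70, SE 0.14, adjusted p = 0.00546).

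**Figure D3:**
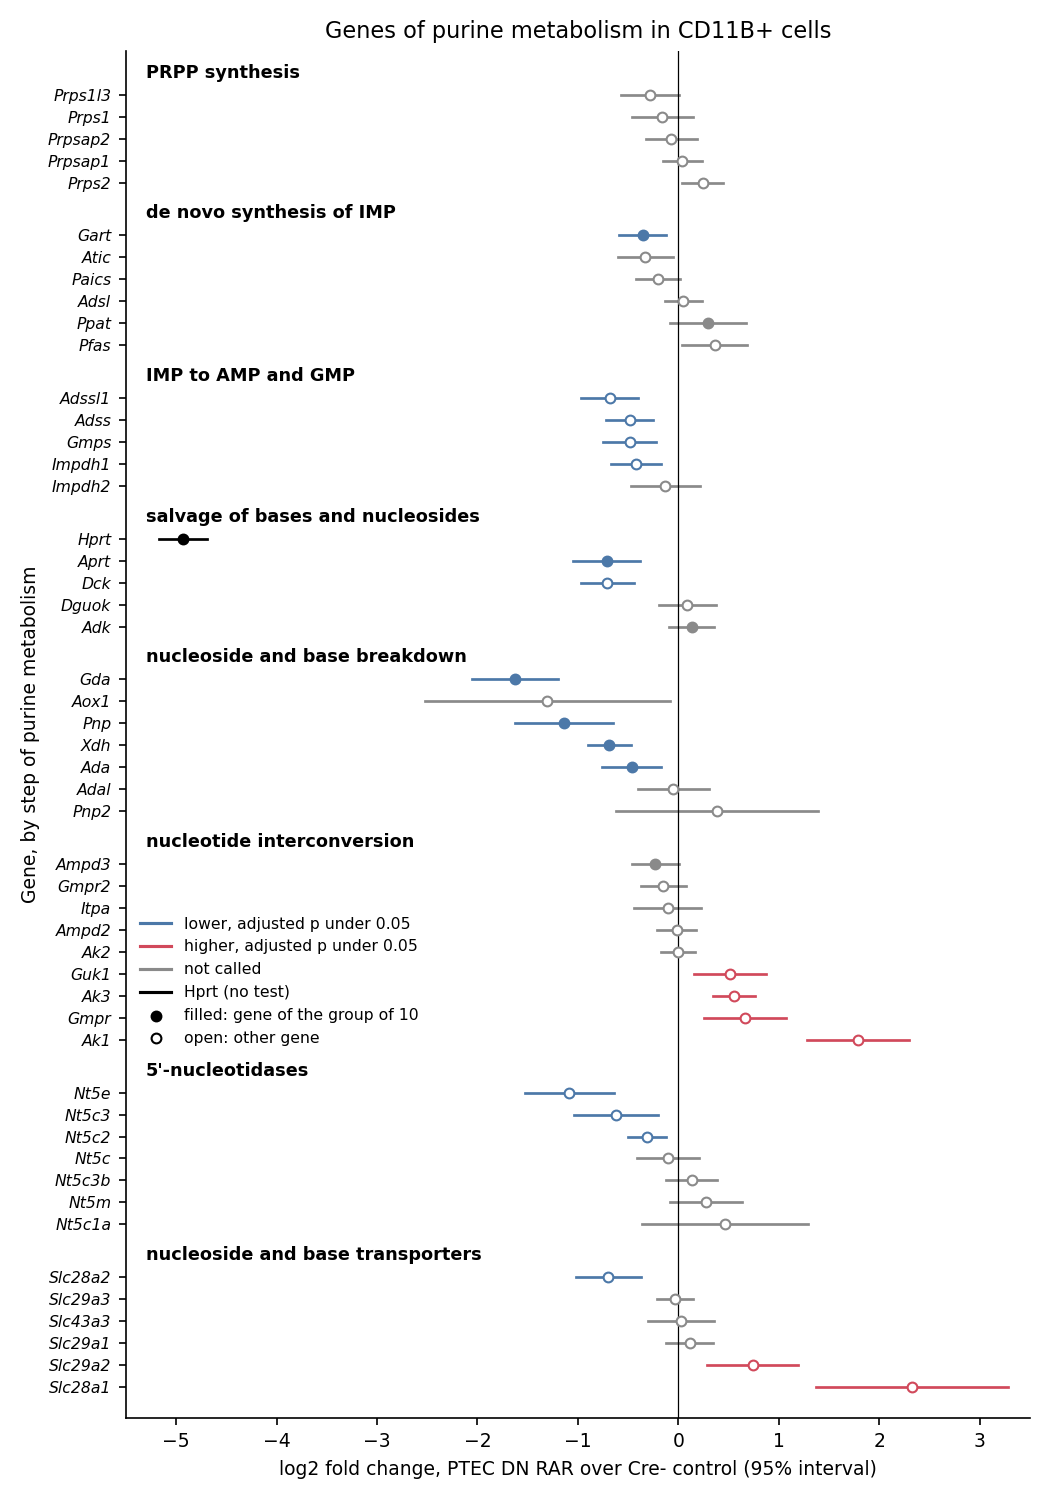
Log2 fold change (PTEC DN RAR over Cre- control) with its 95% interval for every tested gene of the purine metabolism list, by class, with filled points for the 10 genes described first. Hprt (black, no test) stands apart at -4.93, 4 of 5 genes from IMP to AMP and GMP are called lower, and the largest rises are Slc28a1 at 2.33 and Ak1 at 1.79.

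Genes next to Hprt on the X chromosome did not share its loss. Of 57 genes in the table that start within 1 Mb of Hprt, 14 were tested, 0 were lower and 4 were higher, with a median log2 fold change of 0.07, where 17.1% and 23.6% of all genes tested were lower and higher. Phf6, which encodes a chromatin protein and is the closest protein-coding gene tested, starts 75.9 kb before Hprt and was at 29.0, 41.1 and 36.4 CPM in Cre- controls and 29.1, 29.2 and 27.8 CPM in PTEC DN RAR mice. The groups overlapped, and its log2 fold change was -0.31 (SE 0.13, 95% interval -0.60 to -0.02, adjusted p = 0.0853).

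The 4 higher neighbours were the glypican genes Gpc4 (1.79, SE 0.17, adjusted p = 0.000275) and Gpc3 (1.78, SE 0.27, adjusted p = 0.0016), 935 and 716 kb before Hprt, and Cxx1c (0.98, adjusted p = 0.00297) and Cxx1a (0.77, adjusted p = 0.0307), 620 and 654 kb after it. Cxx1a, Cxx1b and Cxx1c resemble each other, so their reads are uncertain. The 9 other tested neighbours besides Phf6 had log2 fold changes from -0.57 (Xlr, adjusted p = 0.0697) to 1.14 (Ccdc160, adjusted p = 0.057), with A630012P03Rik, AW822252, Fam122b, Gm14584, Mospd1, Cxx1b and C430049B03Rik between them.

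At an unadjusted p under 0.05, 2 neighbours were lower, Phf6 and Xlr. DESeq2 called these 2 as lower and limma-voom called 0, while without Cre- control 1 edgeR called 1 (Phf6) and without Cre- control 3 it called 1 (Xlr). Neither log2 fold change came near that of Hprt. The median log2 fold change was -0.17 over the 7 tested genes within 0.5 Mb and -0.11 over the 17 within 2 Mb, so its sign turned with the window. Within 2 Mb, Rap2c (-0.78, adjusted p = 0.00105) and Mbnl3 (-1.15, adjusted p = 0.00824) were lower, and both start over 1 Mb away. Over the whole X chromosome, 89 of 506 tested genes were lower and 98 were higher, with a median of -0.01. The shares over all genes tested were 17.1% lower and 23.6% higher.

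**Figure D4:**
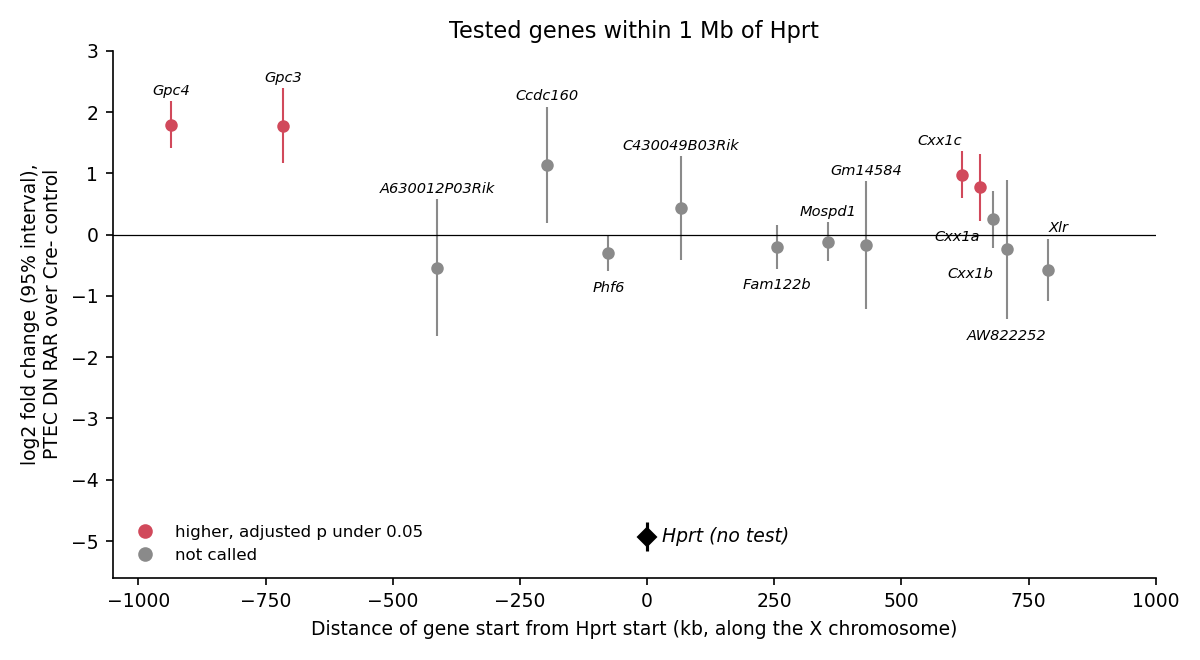
Log2 fold change (PTEC DN RAR over Cre- control) with its 95% interval for the 14 tested genes that start within 1 Mb of Hprt, against the distance of their start from that of Hprt in kb, with Hprt as a diamond. Hprt lies at -4.93 while the lowest neighbour, Xlr, lies at -0.57.

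The part of the shift in cell type markers in the falls of Aprt, Pnp, Ada, Gda, Xdh and Gart and in the rises of Ak1, Guk1 and Slc28a1 was not tested. Scaling on 21 pan-leukocyte genes raised the median over all genes from 0.04 to 0.23 and left 784 genes lower and 4705 higher, against 2636 and 3640 with TMM. Under that scaling Hprt was at -4.74, Gda, Pnp, Aprt and Xdh were still called lower, and Adk, Ppat and Ampd3 were not called. The libraries held 29318041 to 46517005 counts on genes, and each mouse is 1 replicate, so the intervals cover the spread between 3 mice per group.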

How the data were processed

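The authors sequenced RNA of CD11B+ kidney cells and deposited raw read counts per Ensembl gene for 6 libraries in 1 table, without normalization. The submitters' processing notes name STAR 2.5.0a, HTSeq 0.6.1, edgeR, limma and GRCm38. Reads aligned to more than 1 place are left out of gene counts and, with the other summary lines (46.4% to 50.6% of all counts in the table), were kept out of library sizes. Of 46612 gene lines, 9 repeats with equal counts were collapsed, and 27 symbols turned into dates were restored. Coordinates and exon lengths are from GENCODE M21.

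After filterByExpr and TMM scaling, 15440 genes were tested by edgeR 4.0.16 (glmQLFit, glmQLFTest; R 4.3.3) and p-values adjusted after Benjamini and Hochberg. The script was tested on simulated data. Libraries of 1 group differed by a chi-square per degree of freedom of at least 27.1, beyond counting noise, so none was another library sequenced again. This value cannot show that they came from separate mice, which rests on the labels. Alternatives were DESeq2 1.42.0, limma-voom 3.58.1, scaling by library size or by 21 pan-leukocyte genes, no filter, at least 10 counts in every library, the replicate number as a block, and leaving out each mouse. Motifs were sought in 250 upstream bases on both strands. Correlations used log2 CPM with a pseudocount of 0.5.

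Named genes are the 10 genes, per class of the purine list the called genes with the largest and smallest log2 fold change, the 5 genes most like Hprt, the 5 next lowest (1 of them not reported here), tested neighbours within 1 Mb, Pnp2 and reference genes of qPCR. Ak3, Prps2, Prps1l3, Pfas, Atic, Rap2c, Mbnl3 and the list of untested genes were added after their values were seen. The genes and lists were chosen with earlier results of these data known. Nothing in the labels says whether mice shared a litter or day.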

Additional observations from a re-analysis of the deposited data

How the results depend on the processing

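The log2 fold change of Hprt ran from -5.01 to -4.74 over 13 alternatives, with -4.74 under pan-leukocyte scaling, and those of Aprt, Pnp, Gda and Xdh stayed called and lower in all of them. Ada lost its call in 1 of 13 and Gart in 5, Ampd3 gained one in 1, and no gene of the group changed sign. Under pan-leukocyte scaling 784 genes were lower in all, and 8 of the purine list were lower and 9 higher, and the cause was not tested. Leaving out single mice gave 3 to 6 higher genes of the purine list and 0 to 1 lower neighbours of Hprt. With DESeq2, added after seeing the data, 2 neighbours were lower. A window of 2 Mb gave 2 lower neighbours and a window of 0.5 Mb, which holds 7 tested genes, gave 0 higher. Replicate numbers are shared by different mice and do not pair them, since deviations of same-numbered libraries correlated at -0.02, 0.26 and -0.01, and number 2 alone correlated best with itself. With the replicate number as a replicate block, 2606 genes were lower and 3612 higher, and Hprt was at -4.93. Having 3 mice per group limits small changes such as those of Adk, Ppat and Ampd3, and a p above the threshold does not show that they did not differ.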

Other observations

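Hprt is widely used as a reference gene in quantitative PCR, and 16 other genes used that way were read in the same libraries. Of these, 12 were not called, 3 were lower and 1 was higher, with log2 fold changes between -0.51 and 0.44, against -4.93 for Hprt. Among all genes tested, 17.1% were lower and 23.6% were higher. The lower genes were Actb, the cytoplasmic actin (-0.51, SE 0.12, adjusted p = 0.00994), Pgk1, a glycolytic kinase (-0.50, SE 0.15, adjusted p = 0.0303) and Ppia, a peptidyl-prolyl isomerase (-0.47, SE 0.10, adjusted p = 0.00801). Sdha, a subunit of succinate dehydrogenase, was higher (0.44, SE 0.09, adjusted p = 0.00499). Polr2a, the large subunit of RNA polymerase II, had the value nearest 0 (-0.03, SE 0.10, adjusted p = 0.815), with 244 ± 22.1 CPM in Cre- controls against 239 ± 18.9 CPM with DN RAR (SD, n = 3 per group). Gapdh was at only 4.97 ± 0.268 CPM in Cre- controls and 3.70 ± 0.566 CPM with DN RAR, and it has many near-identical copies whose shared reads are left out of these counts.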
